A study of Mus musculus with 2 samples.

Results

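*Zbtb16*, *Rora*, *Tox*, *Tbx21* and *Nfil3* are transcription factor genes of innate lymphoid development, and they are 5 of the 28692 genes listed for these libraries. They were taken by name, and the barcodes in which they were counted were grouped by the UMIs (unique molecular identifiers, each standing for 1 captured transcript) of other genes. A barcode was kept as a cell if it held 1500 or more UMIs from 500 or more genes, no more than 10% of them mitochondrial, which left 1788 barcodes in library FL001 and 4100 in library FL002. The question was which of the 5 factors are found in barcodes rich in *Id2* and which are spread over T-cell precursors.

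Both libraries hold wild type cells of CD1 mice, taken from fetal liver at E13.5. After depletion of TER-119 positive cells, Sca-1+ cKit+ hematopoietic stem and progenitor cells were sorted and cultured, 1000 cells to a well, on the Notch ligand DL4 at 10 µg/mL with the adhesion molecule VCAM-1 at 2.32 µg/mL. The libraries share 1 label and differ in no stated condition. Per the paper, some cells were captured directly after sorting, with no culture. These and cells of several culture times were pooled, and the times held by each library are not stated.

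Innate lymphoid cells and natural killer cells arise from the same lymphoid progenitors as T cells but carry no rearranged antigen receptor. *Id2*, an inhibitor of E protein transcription factors, is raised along the innate path, whereas E proteins and Notch signaling drive the T-cell path. *Nfil3* and *Tox* act early in this path, where they are needed for innate lymphoid and natural killer precursors. *Zbtb16* encodes PLZF, which marks the innate lymphoid precursor and is also used by innate-like T cells. *Rora* is needed for group 2 innate lymphoid cells and is found in group 3 cells, and *Tbx21* encodes T-bet, the factor of group 1 innate lymphoid and natural killer cells.

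In GRCm38 coordinates *Zbtb16* lies on chromosome 9 from 48654297 to 48836222 on the minus strand, and *Rora* on chromosome 9 from 68653786 to 69388246 on the plus strand. *Tox* lies on chromosome 4 from 6686353 to 6991557, *Tbx21* on chromosome 11 from 97098071 to 97115331 and *Nfil3* on chromosome 13 from 52967209 to 52981073, all on the minus strand. *Rora* overlaps *Gm15511* and *Tox* overlaps *Gm11802* on the opposite strand. Whether the counting used the strand is not given in the sources used here, so reads at these overlaps cannot be told apart.

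Promoters of 3 of the 5 factors were found in the RefSeq table of GRCm38.p6, each with 250 bases before and 50 after the transcript start. They are shown because *Id2* acts through proteins that bind E-boxes. Capitals mark the E-box letters CAGCTG and CAGGTG, searched on both strands, so that CACCTG counts as CAGGTG, and the 2 motifs have no letters in common in these windows.
*Rora*, chr9:68653536-68653835, plus strand: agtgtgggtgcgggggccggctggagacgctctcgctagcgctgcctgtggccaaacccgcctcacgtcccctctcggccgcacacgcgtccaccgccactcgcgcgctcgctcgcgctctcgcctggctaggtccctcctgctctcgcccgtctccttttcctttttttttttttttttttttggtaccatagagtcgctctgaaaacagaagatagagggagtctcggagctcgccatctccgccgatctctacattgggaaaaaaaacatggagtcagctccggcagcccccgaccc
*Tbx21*, chr11:97115282-97115581, minus strand: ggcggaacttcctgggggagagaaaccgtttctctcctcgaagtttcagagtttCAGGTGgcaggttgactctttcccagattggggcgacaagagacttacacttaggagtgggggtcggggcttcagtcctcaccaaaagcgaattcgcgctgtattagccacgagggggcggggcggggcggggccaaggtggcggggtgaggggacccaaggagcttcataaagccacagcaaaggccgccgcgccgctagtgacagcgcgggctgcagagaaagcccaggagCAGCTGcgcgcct
*Nfil3*, chr13:52980990-52981289, minus strand: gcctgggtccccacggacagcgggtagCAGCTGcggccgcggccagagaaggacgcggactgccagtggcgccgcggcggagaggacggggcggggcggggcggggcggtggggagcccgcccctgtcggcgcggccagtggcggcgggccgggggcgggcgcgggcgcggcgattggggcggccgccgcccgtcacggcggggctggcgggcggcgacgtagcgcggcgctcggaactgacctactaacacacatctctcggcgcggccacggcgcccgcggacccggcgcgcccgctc
The *Rora* window holds 0 of these letters, the *Nfil3* window 1 and the *Tbx21* window 2. The *Nfil3* match is CAGCTG at -223 from the start, and the *Tbx21* matches are CAGGTG at -196 and CAGCTG at 37. Of all 32851 promoters of this length, 32.9% hold either motif, 16.3% hold CAGCTG and 20.2% hold CAGGTG. These are matches of letters only, and no binding was measured.

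Kept barcodes had 1559 to 27025 UMIs in FL001 (median 7722) and 1510 to 17589 in FL002 (median 4752.5), and 10 barcode sequences were kept in both libraries. The barcodes were grouped into 6 sets, called gates here. The *Id2* gate holds barcodes with at least 3 *Id2* UMIs, 217 in FL001 (12.1%) and 239 in FL002 (5.83%). The progenitor gate (428 and 724 barcodes) needs at least 2 UMIs of *Lmo2* and *Mef2c* together and at most 1 of *Cd3g*. The early gate (350 and 1070) holds at most 2 *Cd3g* UMIs, at most 1 of *Lmo2* and *Mef2c* and at most 2 of *Id2*, and the *Cd3g* gate (825 and 2081) at least 3 of *Cd3g* and at most 2 of *Id2*. *Il2ra* (738 and 1668 barcodes, at least 1 UMI) and the commitment genes *Ptcra*, *Lef1* and *Bcl11b* (451 and 501, at least 2 UMIs together) define 2 further gates that overlap the others. The median depth of the *Id2* gate, 8524 UMIs in FL001 and 4793 in FL002, was close to that of the *Cd3g* gate, 7664 and 4326.

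The *Id2* gate was first checked against marker lists. The 12 innate lymphoid or natural killer markers, *Id2* among them, summed to 1857 CPM (UMIs of a gene per 1000000 UMIs of the group) in FL001 and 2199 CPM in FL002, against 973 and 992 CPM in the *Cd3g* gate, 883 and 909 in the early gate and 546 and 530 in the progenitor gate. *Id2* sets the *Id2* gate and is held to at most 2 UMIs in the *Cd3g* and early gates. Much of the excess over those gates was therefore fixed by the gating, so these sums are no independent check of the gate. Without *Id2*, 6 of the 10 markers tested were called higher than in the *Cd3g* gate and 0 lower. Of all genes tested, 1.18% and 0.127% were called so, in the edgeR test described below. The list was chosen with earlier results of these data known. *Il22*, among the 6, reached the minimum count for testing only in the *Id2* sums. This count of markers is therefore no independent check either. All 12 markers were detected in the *Id2* gate of both libraries, and all 12 also in the *Cd3g* gate of both. The 12 T lineage markers, *Cd3g* among them, summed to 3562 and 2953 CPM in the *Id2* gate and to 4596 and 4389 CPM in the *Cd3g* gate. Without the genes that set gates, 0 of the 7 tested were called higher and 0 lower between these gates, beside the same shares of all genes. The *Id2* gate was mixed. In FL001 147 of its barcodes and in FL002 144 also held at least 3 *Cd3g* UMIs, 38 and 31 also fell in the progenitor gate, and 32 and 64 did neither. The 9 neutrophil or monocyte markers summed to 1910 CPM in the FL001 *Id2* gate against 205 in FL002, and 1548 UMIs of *S100a8*, a neutrophil calcium-binding protein, sat in only 5 of its barcodes. *S100a8* was at 0 in the FL002 barcodes of the same class, those with neither the *Cd3g* nor the progenitor signature. The part of these barcodes in the results was not tested.

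The 5 factors fell into 3 patterns. *Tbx21* was found only in *Id2*-gate barcodes but in 3 UMIs. *Rora*, *Nfil3* and *Tox* were highest in the *Id2* gate while most of the barcodes that held them lay outside it. *Zbtb16* was at similar levels in the *Id2* and *Cd3g* gates and was lowest in the progenitor gate.

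**Figure D1:**
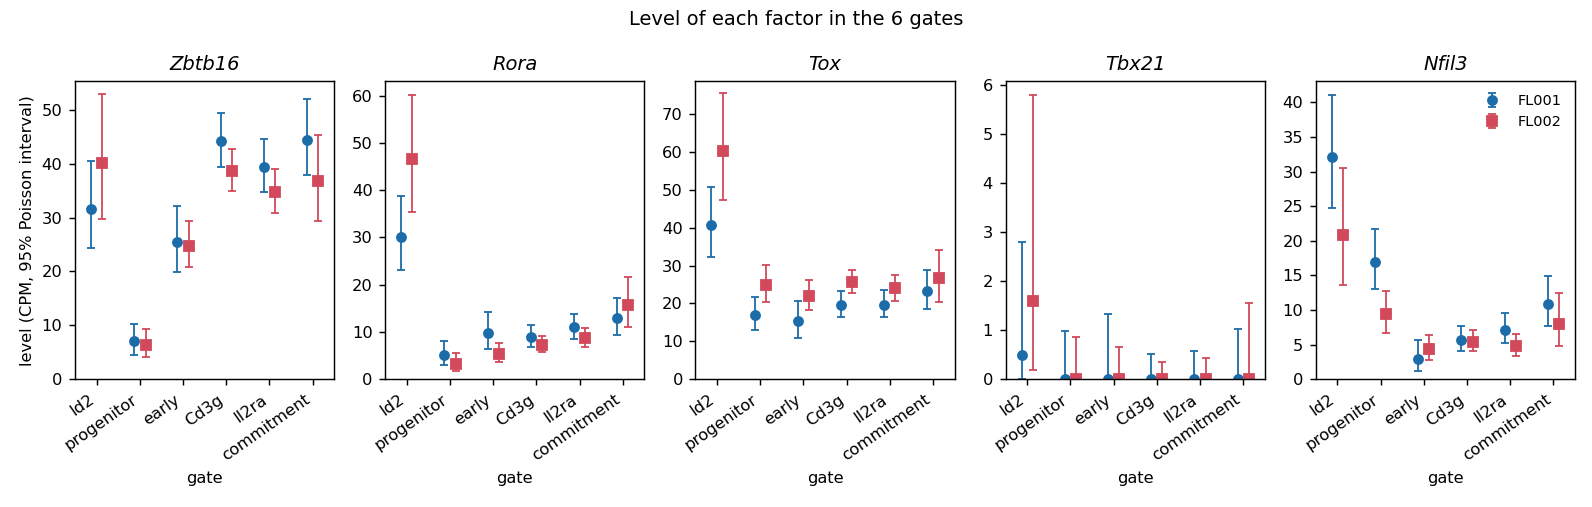
Level of each factor in CPM (y axis) in the 6 gates (x axis), with FL001 as circles, FL002 as squares and bars for 95% exact Poisson intervals of the UMI count. *Rora* sits at 30.2 and 46.5 CPM in the *Id2* gate and between 3.29 and 15.6 CPM in the other gates, whereas *Zbtb16* in the *Cd3g* gate, 44.2 and 38.7 CPM, is in the range of its *Id2* gate.

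*Rora*, an orphan nuclear receptor, reached 30.2 CPM in the *Id2* gate of FL001 (60 UMIs, 95% interval 23.0 to 38.8) and 46.5 CPM in that of FL002 (58 UMIs, 35.3 to 60.2). Its level was 8.96 and 7.29 CPM in the *Cd3g* gate, 9.82 and 5.39 CPM in the early gate and 5.13 and 3.29 CPM in the progenitor gate. The *Id2* gate was the highest in both libraries, and its intervals did not overlap those of the other 3 gates. The intervals cover counting error only, and the UMIs were clustered, with up to 7 in 1 barcode of the *Id2* gate and at most 1 in any barcode of the progenitor gate.

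UMIs summed for each library and gate were compared with edgeR's quasi-likelihood test, with the library as a block and Benjamini-Hochberg adjustment over 11040 genes. Nothing says that the libraries came from separate cultures or embryos. With the library as a block, these p-values measure the spread of gate differences between 2 libraries, which may be technical. Barcodes that were in both the *Id2* gate and the progenitor gate entered neither sum, leaving 179 and 208 in the *Id2* sums. Against the *Cd3g* gate 3 of the 4 factors tested were called higher (1.3% of all genes tested were called, 1.18% higher and 0.127% lower), with *Tbx21* below the minimum of 10 UMIs in 2 sums. *Rora* was higher by 2.43 ± 0.25 on the log2 scale (SE, adjusted p = 1.05e-07). It was higher by 2.63 ± 0.28 against the early gate (adjusted p = 6.1e-08), where 4 of 4 factors tested were called higher. Of all genes tested 10.8% were called there, 6.44% higher and 4.35% lower. Against the progenitor gate the difference was 3.43 ± 0.31 (adjusted p = 8.92e-10), with 4 of 4 factors called higher beside 24.1% of genes called, 13.1% higher and 11% lower. The ratio of levels to the *Cd3g* gate was 3.37 in FL001 and 6.38 in FL002, so that the libraries differed in its size but not in its direction. Without FL001 the difference from the early gate was 3.32 on the log2 scale, and without FL002 it was 1.88.

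*Rora* was not confined to the *Id2* gate. The gate held 35.9% of the *Rora* UMIs of FL001 and 33.0% of those of FL002, in 25.0% and 22.6% of the barcodes with a *Rora* UMI. Thinned to 1500 UMIs each, 6.91% of *Id2*-gate barcodes in FL001 (95% exact binomial interval 3.92 to 11.1) and 5.86% in FL002 (3.24 to 9.63) held *Rora*, against 2.06% and 1.39% in the *Cd3g* gate. Unthinned, the shares were 13.4% and 12.6% in the *Id2* gate and 5.58% and 3.22% in the *Cd3g* gate. *Rora* was at 0 in the 72 and 83 barcodes rich in neutrophil granule genes (at least 20 UMIs of *Elane*, *Mpo*, *Prtn3* and *Ctsg* together, with at most 2 of *Cd3g* and at most 2 of *Id2*), which allows a share of up to 4.17% in FL001 and 3.61% in FL002. Most of these barcodes were in the progenitor gate. They were deeper, with a median of 11165 and 7911 UMIs, and their threshold was chosen after the values were seen. In empty droplets of 1 to 100 UMIs *Rora* was at 6.61 and 8.01 CPM, close to its level in the *Cd3g* and early gates.

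*Nfil3*, a basic leucine zipper repressor, was at 32.2 CPM in the FL001 *Id2* gate (64 UMIs, interval 24.8 to 41.1) and 20.9 CPM in FL002 (26 UMIs, 13.6 to 30.6). The progenitor gate came next at 17.0 and 9.41 CPM, and the *Cd3g* gate at 5.69 and 5.45 CPM and the early gate at 2.91 and 4.31 CPM were lowest. In FL001 33 of the 63 *Nfil3* UMIs of the progenitor gate came from barcodes that are also in the *Id2* gate, and progenitor barcodes with at most 2 *Id2* UMIs were at 9.09 and 7.65 CPM. In empty droplets *Nfil3* was at 7.72 and 4.45 CPM, above its early-gate level in both libraries and above its *Cd3g*-gate level in FL001. The tested *Id2* sums left out the barcodes shared with the progenitor gate. Those held 33 of the 64 *Nfil3* UMIs of the FL001 *Id2* gate and 9 of the 26 in FL002. In the tested sums *Nfil3* was higher in the *Id2* gate than in the *Cd3g* gate by 1.69 ± 0.30 (adjusted p = 0.000652, edgeR) and than in the early gate by 2.22 ± 0.35 (adjusted p = 2.04e-05). The difference from the progenitor gate was 1.13 ± 0.31 (adjusted p = 0.00574 with edgeR), and DESeq2 gave an adjusted p of 0.0838. The call against *Cd3g* was lost with the *Id2* gate at 2 UMIs (adjusted p = 0.0823, edgeR). With gates set on thinned counts it was lost against *Cd3g* and early (adjusted p = 0.623 and 0.71, edgeR), and the difference from the progenitor gate turned to -0.14 (adjusted p = 0.963). These gates left only 26 and 48 barcodes in the *Id2* sums. The difference from *Cd3g* was then 1.05 ± 0.91 and that from the progenitor gate had an SE of 0.85, so these losses cannot be read as equal levels.

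The early gate was lower than the progenitor gate in *Nfil3* by edgeR (log2 difference -1.09 ± 0.33, adjusted p = 0.0218), the one factor called lower there, beside 6.12% of genes called lower. This call was lost without the barcodes rich in granule genes (-0.92, adjusted p = 0.0982, edgeR), with no library block (adjusted p = 0.0669), with gates set on thinned counts (adjusted p = 0.121) and with DESeq2 (adjusted p = 0.208). Those of them with at most 2 *Cd3g* and 2 *Id2* UMIs held *Nfil3* at 18.7 CPM in FL001 and 8.83 CPM in FL002, in 18.1% and 7.23% of barcodes. In the progenitor gate without them *Nfil3* was at 10.6 and 9.65 CPM, and in the FL001 *Id2* gate without them at 24.8 CPM.

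*Tox* encodes an HMG-box protein that acts in both innate lymphoid precursors and thymocytes. It was at 40.7 CPM in the FL001 *Id2* gate (81 UMIs, interval 32.4 to 50.6) and 60.2 CPM in FL002 (75 UMIs, 47.4 to 75.5). Its level was 17.0 and 24.9 CPM in the progenitor gate, 15.3 and 21.9 CPM in the early gate and 19.6 and 25.7 CPM in the *Cd3g* gate. In FL001 31 of the 63 *Tox* UMIs of the progenitor gate came from the 38 barcodes it shares with the *Id2* gate, and progenitor barcodes with at most 2 *Id2* UMIs were at 9.69 and 20.98 CPM. In each of these gates FL002 was above FL001. The shared barcodes, left out of the tested sums, held 31 of the 81 *Tox* UMIs of the FL001 *Id2* gate and 21 of the 75 in FL002. In the tested sums the *Id2* gate was higher than the *Cd3g* gate by 0.85 ± 0.19 (adjusted p = 0.00994, edgeR), than the early gate by 1.15 ± 0.21 (adjusted p = 0.000166) and than the progenitor gate by 1.43 ± 0.22 (adjusted p = 5e-06). The first of these calls was lost with DESeq2 (0.84, adjusted p = 0.316), with no library block and with the *Id2* gate set at 2 UMIs, and the other 2 were lost with no library block (adjusted p = 0.227 and 0.0703, edgeR). Between the early and progenitor gates *Tox* differed by 0.28 ± 0.20 (adjusted p = 0.406), and between the *Cd3g* and early gates by 0.30 ± 0.16 (adjusted p = 0.26).

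*Tox* was the most widely spread of the 3 genes that were high in the *Id2* gate. That gate held 27.6% and 13.6% of its UMIs, and 10.9% to 11.6% of the barcodes outside it held a *Tox* UMI. *Tox* in granule-gene barcodes was at 7.01 and 5.89 CPM, below the level of every gate. In empty droplets it was at 22.0 and 24.0 CPM.

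*Zbtb16* was at like levels in the *Id2* gate and in T-lineage barcodes. Its level was 31.7 CPM in the FL001 *Id2* gate (63 UMIs, interval 24.3 to 40.5) and 40.1 CPM in FL002 (50 UMIs, 29.8 to 52.9), and 44.2 (311 UMIs) and 38.7 CPM (398 UMIs) in the *Cd3g* gate. The early gate had 25.5 and 24.8 CPM, and the progenitor gate 7.02 and 6.35 CPM. The libraries gave opposite orders for *Id2* and *Cd3g*, with a ratio of 0.716 in FL001 and 1.04 in FL002, and the fitted difference was 0.02 ± 0.16 (adjusted p = 0.995, edgeR).

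From progenitor to early gate *Zbtb16* was higher by 1.87 ± 0.21 (adjusted p = 3.64e-08, edgeR), where it was the single factor of 4 tested called higher, and 13.6% of genes were called, 7.43% higher and 6.12% lower. It was again higher in the *Cd3g* gate than in the early gate, by 0.72 ± 0.13 (adjusted p = 0.000161), the single factor called there beside 15.4% of genes called, 7.76% higher and 7.63% lower. The difference of the *Id2* gate was 2.61 ± 0.23 from the progenitor gate (adjusted p = 1.15e-10) and 0.74 ± 0.18 from the early gate (adjusted p = 0.00665), the last not called by DESeq2 (adjusted p = 0.0801), with gates set on thinned counts (0.53, adjusted p = 0.625) or with the progenitor overlap kept in the *Id2* gate (0.46, adjusted p = 0.12). The *Cd3g* gate held 65.9% and 64.8% of all *Zbtb16* UMIs, against 13.3% and 8.14% in the *Id2* gate. These gates held 46.1% and 50.8%, and 12.1% and 5.83%, of the kept barcodes, so much of this contrast is gate size. Granule-gene barcodes held *Zbtb16* at 7.01 and 10.3 CPM, in 8.33% and 8.43% of barcodes, and the progenitor gate, which holds most of them and is less deep, in 5.61% and 3.31%. In empty droplets *Zbtb16* was at 20.9 and 17.8 CPM.

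**Figure D2:**
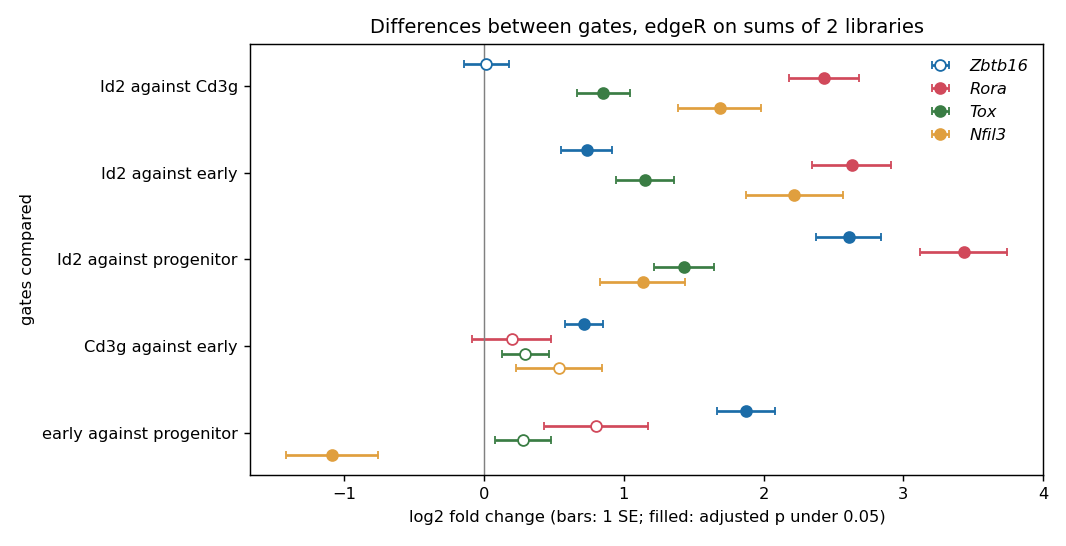
Fitted log2 differences between gates (x axis) for 4 factors and 5 pairs of gates (y axis), with bars of 1 SE and filled points where the adjusted p was under 0.05. *Rora* is farthest right in the 3 comparisons of the *Id2* gate, and *Zbtb16* sits at 0.02 for *Id2* against *Cd3g*.

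*Tbx21* was found in 1 UMI in FL001 and 2 UMIs in FL002, each in a different barcode, and all 3 barcodes were in the *Id2* gate. Its level there was 0.503 CPM and 1.61 CPM. None of the 1571 and 3861 barcodes outside the gate held a UMI, which allows a share of up to 0.191% in FL001 and 0.0777% in FL002. It was also at 0 in empty droplets. With 3 UMIs no order of gates can be read, and *Tbx21* entered no test.

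The 3 barcodes were not alike in depth or in other markers. The FL001 barcode (5050 UMIs) held 5 *Id2*, 9 *Nkg7*, 6 *Ncr1* and 5 *Klrd1* UMIs, which are natural killer receptors and a granule protein, with 1 UMI of *Zbtb16* and 1 of *Nfil3*. The first FL002 barcode (1651 UMIs) held 6 *Cd3g* UMIs beside 3 of *Id2*, 12 of *Gzmb*, a cytotoxic protease, and 2 of *Ncr1*. The second (3997 UMIs) held 4 *Id2*, 3 *Klrd1* and 2 *Rora* UMIs and 0 of *Cd3g*. Each held *Klrd1*, and *Eomes*, the related T-box gene of natural killer cells, was at 0 in the *Id2* gate of both libraries, with 2 UMIs in the FL002 progenitor gate.

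**Figure D3:**
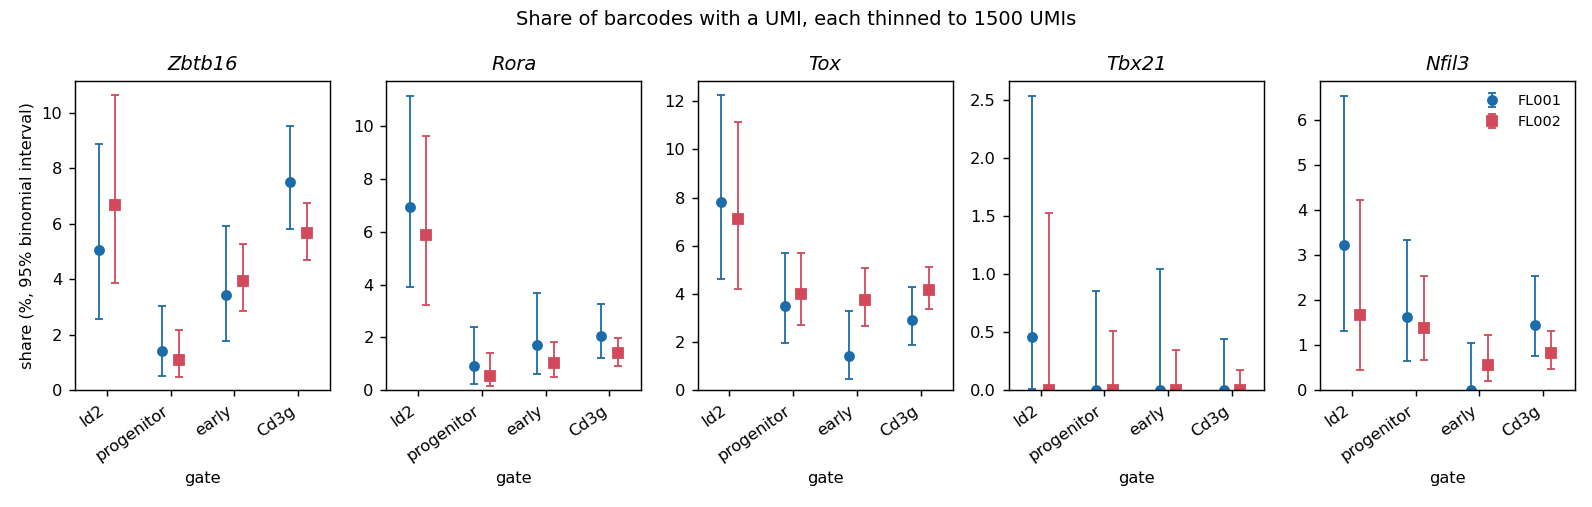
Share of barcodes with a UMI of each factor (y axis, percent) in the 4 gates that depend on *Id2*, *Cd3g*, *Lmo2* and *Mef2c* (x axis), after each barcode was thinned to 1500 UMIs, with 95% exact binomial intervals. At this equal depth *Rora* was in 6.91% and 5.86% of the *Id2* gate and in 0.935% and 0.552% of the progenitor gate.

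Dividing the *Id2* gate into its 3 classes separated the factors further. The classes were chosen after the values were seen, and the values are given with no test. In barcodes that also held at least 3 *Cd3g* UMIs, *Zbtb16* was at 43.9 CPM in FL001 and 54.8 CPM in FL002. It was at 12.6 (3 UMIs) and 28.2 CPM (9 UMIs) in barcodes of neither signature. In those that were also in the progenitor gate it was at 2.48 and 5.09 CPM, resting on 1 UMI in each library. Inside the *Id2* gate the level of *Zbtb16* was thus highest with *Cd3g*. The intervals of this class and of the class of neither signature overlapped in both libraries.

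*Rora* was highest in the class of neither signature, at 71.2 CPM in FL001 (17 UMIs) and 65.7 CPM in FL002 (21 UMIs). With *Cd3g* it was at 30.5 and 49.3 CPM, still 3.40 and 6.76 times its level in the *Cd3g* gate, and in FL002 the intervals of the 2 classes overlapped. With the progenitor signature *Rora* was at 4.95 and 5.09 CPM, near the 5.15 and 3.21 CPM of progenitor-gate barcodes with at most 2 *Id2* UMIs. *Nfil3* and *Tox* were highest in the progenitor class, although the intervals of this class and of the class of neither signature overlapped for both genes in both libraries. In the progenitor class *Nfil3* was at 81.7 CPM in FL001 (33 UMIs) and 45.8 CPM in FL002 (9 UMIs), 8.99 and 5.98 times the progenitor gate with at most 2 *Id2* UMIs. *Tox* there was at 76.8 CPM (31 UMIs) and 107 CPM (21 UMIs), 7.92 and 5.09 times that gate.

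In the *Cd3g* class, *Tox* was at 26.0 and 35.6 CPM and *Nfil3* at 17.8 and 10.96 CPM. In the class of neither signature, *Tox* was at 62.8 and 87.6 CPM and *Nfil3* at 29.3 and 28.2 CPM. Markers of other cells moved with these classes. The 6 dendritic markers, *Flt3* among them, summed to 466 and 356 CPM in the progenitor class, against 192 and 153 CPM in the whole progenitor gate, 16.4 and 28.8 CPM in the *Cd3g* class and 54.4 and 278 CPM in the class of neither signature. The neutrophil or monocyte markers summed to 13157 and 238 CPM in the class of neither signature. In the FL001 progenitor class 10 of the 38 barcodes were rich in granule genes, and without them *Nfil3* was at 55.8 CPM and *Tox* at 81.8 CPM. The part of these markers in the levels was not tested.

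**Figure D4:**
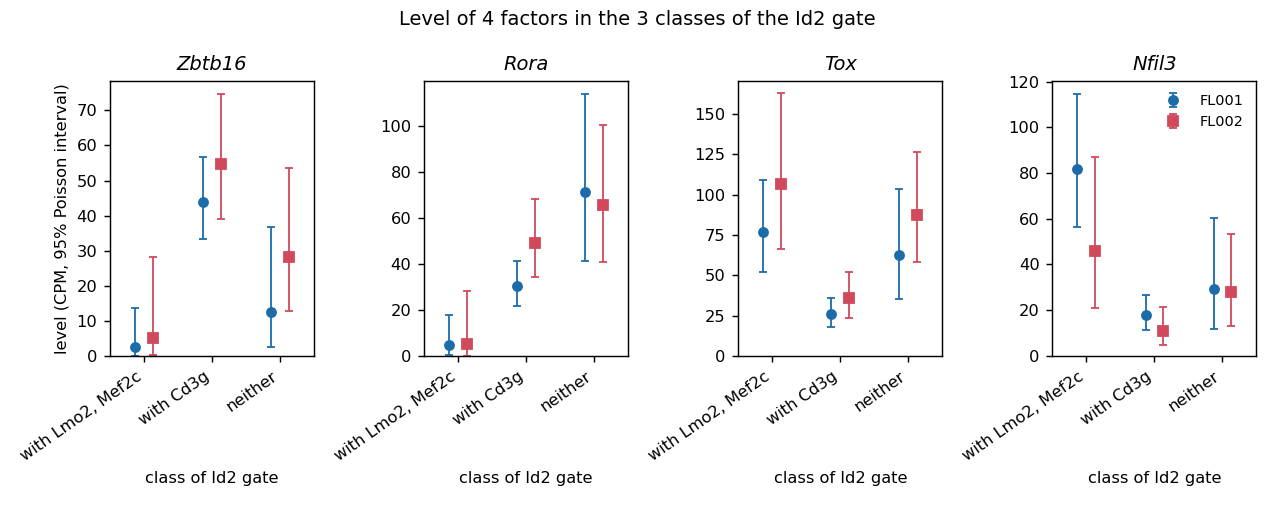
Level of 4 factors in CPM (y axis) in the 3 classes of the *Id2* gate (x axis): barcodes also in the progenitor gate (38 and 31), barcodes with at least 3 *Cd3g* UMIs (147 and 144) and barcodes with neither (32 and 64), with 95% exact Poisson intervals. *Rora* is highest in the last class, *Nfil3* in the first and *Zbtb16* in the second, in both libraries. The intervals of *Nfil3* and *Zbtb16* in these classes overlap those of the last class in both libraries. For *Rora* the intervals of the second and last class overlap in FL002.

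Across all kept barcodes the factors were then read against the number of *Id2* UMIs, a description with no test, since the same counts set the gate. *Rora* was at 6.73 CPM in FL001 and 5.94 CPM in FL002 in barcodes without *Id2*. It was at 39.7 and 54.2 CPM with 4 to 5 *Id2* UMIs and at 77.6 (16 UMIs) and 98.4 CPM (5 UMIs) with 10 or more. The libraries parted at 3 *Id2* UMIs, just inside the gate, where *Rora* was at 3.22 CPM in FL001 and 37.6 CPM in FL002. With 2 *Id2* UMIs, just outside it, *Rora* was at 9.95 and 9.54 CPM.

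*Nfil3* stayed between 4.63 and 6.50 CPM up to 2 *Id2* UMIs, and in FL001 was at 23.6 CPM with 3 and 58.2 CPM with 10 or more. In FL002 it was at 82.6 CPM with 6 to 9 *Id2* UMIs and at 0 in the 12 barcodes with 10 or more. Those 12 barcodes held 50818 UMIs of all genes, too few to set this 0 apart from the FL001 level. *Tox* was at 14.8 and 22.0 CPM without *Id2* and at 53.0 and 165 CPM with 6 to 9 *Id2* UMIs. With 10 or more, *Tox* was at 97.1 CPM in FL001 (20 UMIs) and 39.4 CPM in FL002 (2 UMIs). *Zbtb16* had no such range, with 28.0 and 26.2 CPM without *Id2* and 39.7 and 38.7 CPM with 4 to 5. With 10 or more it was at 29.1 (6 UMIs) and 19.7 CPM (1 UMI), so its level in the last bin is poorly known.

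**Figure D5:**
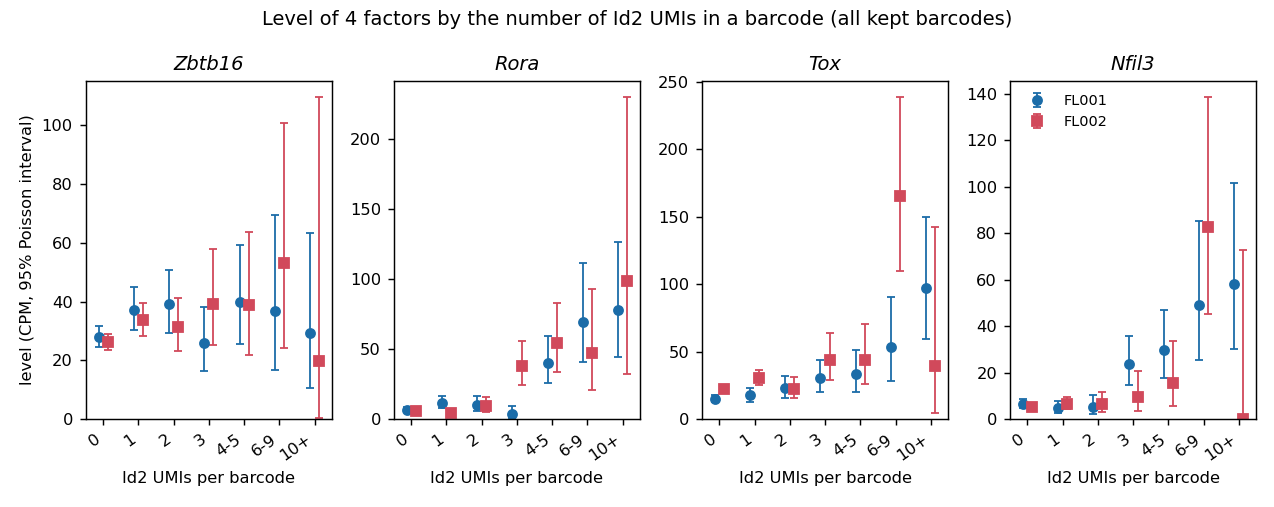
Level of 4 factors in CPM (y axis) in barcodes binned by their number of *Id2* UMIs (x axis), with 95% exact Poisson intervals. The last bin holds 27 and 12 barcodes, and *Rora* there is at 77.6 and 98.4 CPM against 6.73 and 5.94 CPM in barcodes without *Id2*.

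Within the T lineage the factors were compared between earlier and later precursors. Of the *Cd3g* gate, 549 and 1273 barcodes held *Il2ra*, the CD25 chain of the interleukin 2 receptor that marks the DN2 stage. *Zbtb16* was at 42.6 and 35.7 CPM with *Il2ra* and at 47.4 and 43.4 CPM without it. *Tox* was at 18.3 and 23.6 CPM with it and at 22.3 and 28.8 CPM without it. In an edgeR fit of these 4 sums 0 of the 4 factors tested were called, beside 1.46% of 10168 genes (0.924% higher and 0.531% lower), and 0 had an unadjusted p under 0.05. DESeq2 called 0 and gave none of them an adjusted p. The differences ran from -0.28 ± 0.16 for *Tox* to -0.19 ± 0.31 for *Nfil3*, with *Zbtb16* at -0.22 ± 0.11.

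By the commitment genes, 357 and 438 barcodes of the *Cd3g* gate held at least 2 UMIs of *Ptcra*, *Lef1* and *Bcl11b*. *Rora* was at 11.9 and 9.25 CPM in them and at 7.15 and 6.80 CPM in the rest of the gate. *Nfil3* was at 7.43 and 7.30 CPM against 4.61 and 4.98 CPM. By edgeR 0 of the 4 factors tested were called beside 8.84% of 10029 genes (4.94% higher and 3.91% lower), by DESeq2 0, and 1 had an unadjusted p under 0.05, *Rora* (0.58 ± 0.25, adjusted p = 0.205). *Zbtb16* differed by -0.07 ± 0.12 and *Tox* by 0.06 ± 0.20. In simulated counts this comparison found 70% of genes changed 2-fold and 94% of those changed 4-fold. Those genes were drawn from all genes above the minimum count, with 1 common dispersion of 0.000354. The factors had few UMIs, such as 20 and 15 of *Nfil3* in the barcodes with commitment genes. These shares therefore do not give the power for the factors.

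The *Il2ra* and commitment gates also take in *Id2*-rich barcodes. In FL001 49.3% and in FL002 41.4% of the *Id2* gate held *Il2ra*, and 38.7% and 18.0% passed the commitment gate. *Rora* was at 11.03 and 8.71 CPM in the whole *Il2ra* gate and 7.82 and 7.23 CPM in its *Cd3g*-gate barcodes, and at 12.9 and 15.6 CPM in the whole commitment gate. *Zbtb16* was at 39.4 and 34.8 CPM and at 44.5 and 36.7 CPM in these gates.

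Most barcodes held UMIs of at most 1 factor. At least 2 were found in 47 of the 217 *Id2*-gate barcodes of FL001 (21.7%, 95% interval 16.4 to 27.7) and in 29 of 239 in FL002 (12.1%, 8.28 to 17.0). The share was 8.85% and 4.28% in the *Cd3g* gate, 4.29% and 2.43% in the early gate and 4.44% and 2.35% in the progenitor gate. After thinning to 1500 UMIs it was 3.23% and 2.93% in the *Id2* gate, from 7 barcodes in each library. In the *Cd3g* gate it was 0.97% and 0.384%, from 8 barcodes in each. It was 0 and 0.374% in the early gate and 0.467% and 0.691% in the progenitor gate. The *Id2* gate thus stayed highest at equal depth, whereas in FL002 the *Cd3g* and progenitor gates changed order. Its interval overlapped that of the *Cd3g* gate in FL001 (1.31 to 6.53 and 0.42 to 1.90) but not in FL002 (1.19 to 5.94 and 0.166 to 0.756). At this depth 20.3% and 18.4% of *Id2*-gate barcodes held any factor, against 13.0% and 11.7% in the *Cd3g* gate. Whether 2 or more were held beyond what such shares give was not tested.

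*Nfil3* and *Tox* were found together in 29 *Id2*-gate barcodes over both libraries, more than any other pair of factors. In FL001 20 of the 56 barcodes with *Tox* also held *Nfil3* (35.7%), against 9.94% of those without *Tox*. In FL002 it was 9 of 44 (20.5%) against 3.08%. The progenitor gate, which shares barcodes with the *Id2* gate, had both in 25 barcodes, with *Nfil3* in 26.1% and 17.6% of barcodes with *Tox* against 6.28% and 2.31% without. In the *Id2* gate *Rora* was in 17.9% and 22.7% of barcodes with *Tox* and in 11.8% and 10.3% of those without. *Zbtb16* showed no such excess with *Tox* in the *Id2* gate, with 21.4% and 15.9% in barcodes with *Tox* against 23.0% and 17.9% without. In the *Cd3g* gate *Zbtb16* was in 37.9% and 24.3% of barcodes with *Tox* and in 26.7% and 15.6% of those without, but after thinning the pooled shares were 6.31% and 6.19%. Barcodes of greater depth hold more genes of any kind, and after thinning 5 of 34 *Id2*-gate barcodes with *Tox* held *Nfil3* (14.7%), against 1.42% without.

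The other genes of the innate lymphoid programs were taken as lists, with the genes that set the gates left out. Among the innate precursor genes, 4 of the 9 tested were higher and 0 lower in the *Id2* gate than in the *Cd3g* gate (edgeR). Of all genes 1.18% were higher and 0.127% lower. The median difference of the list was 0.77, beside -0.01 over all genes. The 4 higher genes were *Cxcr6*, a chemokine receptor of innate lymphoid precursors (7.72 ± 0.53, adjusted p = 6.65e-09), *Cd7* (1.503 ± 0.15, adjusted p = 2.28e-05), the integrin *Itgb7* and the interleukin 7 receptor *Il7r*. *Cxcr6* reached the minimum count only in the *Id2* sums, so it entered the test through the gate where it is high and its call is no support. *Tcf7*, the Notch target needed in both the T-cell and innate paths, differed by -0.18 ± 0.08 (adjusted p = 0.48) and *Gata3* by 0.18 ± 0.11 (adjusted p = 0.725). Against the progenitor gate all 9 tested were higher, beside 13.1% of all genes, and against the early gate 8 of 9, beside 6.44%. In the *Cd3g* gate 7 of the 9 were also higher than in the early gate, and 1 was lower. The shares of all genes there were 7.76% and 7.63%.

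Of the group 3 genes, *Il22*, the interleukin 22 gene, was at 58.8 and 67.4 CPM in the *Id2* gate, in 14 and 8 barcodes, and at 0.285 and 0.0972 CPM in the *Cd3g* gate (8.50 ± 0.38, adjusted p = 1.09e-17, edgeR). *Il17f* was higher by 6.67 ± 0.68 (adjusted p = 3.84e-08), and the lymphotoxin genes *Lta* and *Ltb* by 3.002 ± 0.47 (adjusted p = 0.000118) and 1.08 ± 0.19 (adjusted p = 0.0137). *Ahr*, a ligand-activated factor of group 3 cells, was higher by 0.87 ± 0.18 (adjusted p = 0.0049). *Il17a* was at 0 in the kept barcodes of both libraries.

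Of the group 1 and natural killer list, 5 of the 11 tested were higher in the *Id2* gate than in the *Cd3g* gate, and 0 lower. Of all genes 1.18% were higher and 0.127% lower. *Ncr1*, which encodes the receptor NKp46, was at 8.05 and 16.1 CPM in 3 and 9 barcodes of the *Id2* gate (5.83 ± 0.63, adjusted p = 1.05e-07, edgeR), and *Klrd1*, *Klrb1c*, *Gzmb* and *Ccl5* were the others. *Eomes*, *Prf1* and *Ifng* were at 0 in the *Id2* gate of both libraries. For group 2 genes 0 of 4 tested were called against the *Cd3g* gate, beside 1.3% of all genes, with a median of 0.10. *Il1rl1*, *Il13*, *Il5*, *Areg* and *Arg1* were at 0 in the *Id2* gate. Of the innate gamma-delta T genes 1 of 10 tested was higher than in the *Cd3g* gate (*Maf*, 1.43 ± 0.34, adjusted p = 0.0207), whereas 7 of 10 were higher than in the early gate. The shares of all genes called higher were 1.18% and 6.44%. The *Cd3g* gate also had 7 of 10 higher than the early gate, beside 7.76% of all genes.

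The genes most like each factor were then named by Pearson's r of log2(CPM + 5) over 12 sums, 6 groups of barcodes in each of 2 libraries, among 6230 genes. The sums share libraries and are not independent, and r is a description. *Zbtb16* was most like *Nrgn* (0.982), *Dbi* (0.978), *Tcrg-C1* (0.977) and *Tmem121* (0.973). *Tcrg-C1*, a constant region of the T-cell receptor gamma chain, was at 35.1 and 27.6 CPM in progenitor sums and at 438 to 684 CPM in the *Cd3g* sums. *Rora* was most like *Lgals3* (0.941), *Cxcr6* (0.940), *Il22* (0.937) and *Gzmc* (0.930). Candidates needed at least 20 CPM in 2 sums, which *Cxcr6*, *Il22* and *Gzmc* had only in the *Id2* sums. *Lgals3* had it there and in the FL001 *Cd3g* sum with commitment genes (36.0 CPM). These genes were thus candidates only through the gate where *Rora* is high, also where they are named below.

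*Tox* was most like *Ppm1b* (0.942), *Usf3* (0.886), *Lpar6* (0.868) and *Ier5* (0.865), and *Nfil3* like *Ppt2* (0.882), *Hmmr* (0.866), *Il22* (0.864) and *Nfkbia* (0.856). These values were lower than those of *Zbtb16*, and *Ppm1b* ranged only from 23.9 to 45.7 CPM. For *Tbx21* the closest genes were *Lmo4* (0.925), *Il22*, *Gzmc* and *Cxcr6*, a likeness that rests on 3 UMIs.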

How the data were processed

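RNA of 2 single-cell libraries of hematopoietic progenitor cells, and of cells cultured from them, was measured. Per the study's methods, the authors made them with 10X Chromium, sequenced the 3' ends on a NextSeq and built gene-barcode matrices with CellRanger. The deposited files hold raw counts of UMIs, neither normalized nor limited to cells (737280 barcodes listed in each library). The submitters' processing notes name the build mm9. Versions and the annotation are not given in the sources used here. Loci were taken from GENCODE M21 (GRCm38), which matched 28339 of 28692 gene identifiers, and promoters from RefSeq (GRCm38.p6), by gene and never by position.

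Total counts were 16320118 UMIs in FL001 and 22651783 in FL002. At least 1500 UMIs were found in 1824 and 4113 barcodes, of which 3 and 0 were left out for few genes and 33 and 13 for mitochondrial UMIs. Levels are CPM of summed UMIs with exact Poisson intervals, and shares have exact binomial intervals at 95%; both cover counting error only, and a count of 0 was given the limit of 3 counts. Shares were also computed after thinning each barcode to 1500 UMIs, which left out none. With an expected rate of 0.06, Scrublet marked 0.391% and 0.0488% of barcodes, too few for a working caller, so all barcodes were kept. The 5% with the highest scores were removed as an alternative.

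UMIs were summed per library and gate, and genes with at least 10 UMIs in at least 2 sums were tested with edgeR 4.0.16 (TMM, robust quasi-likelihood fit, library as a block, 3 residual degrees of freedom for the 4 disjoint gates and 1 within the *Cd3g* gate), with Benjamini-Hochberg adjustment and a threshold of 0.05. DESeq2 1.42.0, RLE size factors, no filter, no block, other thresholds and left-out libraries or barcodes were alternatives, 2 of which were added after the data were seen. On simulated data the test of *Id2* against *Cd3g* found 67% of genes changed 2-fold and 87% of those changed 4-fold, with 5 false calls of 159, and the likeness step found 4 of 4 planted genes. The changed genes were drawn from all genes above the minimum count, so their shares do not give the power for the factors. Genes such as *Il22* and *Cxcr6* passed the minimum count only through the *Id2* sums. Counts of list genes called higher in the *Id2* gate therefore rest partly on genes picked by that gate.

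The factors, gates and lists were chosen with earlier results of these data known. The text names the 5 factors, the genes that set the gates, the 4 genes most like each factor among genes with at least 20 CPM in 2 sums, and genes of the marker and pathway lists. The 3 classes of the *Id2* gate, the bins of *Id2* and the granule-gene barcodes were chosen after values were seen. A gene of the lists, with the counts that include it, is not reported here.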

Additional observations from a re-analysis of the deposited data

How the results depend on the processing

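*Rora* kept its call in the 3 comparisons of the *Id2* gate, and *Zbtb16* its calls against the progenitor gate (*Id2* and early) and for *Cd3g* against early, under every alternative tested. Leaving out granule-gene barcodes took none from the *Id2* sums, which kept 179 and 208 barcodes. With the *Id2* gate at 2 UMIs or more, 1 of 3 factors stayed called against *Cd3g* and 3 of 4 against progenitor. Against early, 2 of 4 stayed called with gates set on thinned counts. For early against progenitor 1 of 2 did with DESeq2, with no replicate block, with thinned gates and without granule-gene barcodes. For *Cd3g* against early, thinned gates gave 2 called factors. Those gates shifted the median of all genes by -0.203, -0.22 and -0.181 for *Id2* against *Cd3g*, early and progenitor. They left 26 and 48 barcodes in the *Id2* sums and put 998 and 2277 in the early sums.

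Genes called for *Id2* against *Cd3g* (144) became 77 with DESeq2, 227 with no filter, 34 with no replicate block, 894 with thinned gates, 89 at 3000 UMIs or more, 68 and 445 with the *Id2* gate at 2 and 5, and 453 with its progenitor overlap. For *Id2* against early (1191) they became 591 with DESeq2 and 555 with no replicate block, and for *Id2* against progenitor (2663) 1588 with DESeq2, 1064 with thinned gates and 1564 with the *Id2* gate at 5. For *Cd3g* against early (1699) they became 685 with DESeq2, 723 with no replicate block and 2684 with thinned gates, and for early against progenitor (1496) 592 and 534 with the first 2. Within the *Cd3g* gate they became 15 (DESeq2) and 1 (no replicate block) for *Il2ra* (148), and 267, 163, 1427 with no filter and 1420 without the top Scrublet scores for the commitment genes (887).

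The near-zero difference of *Zbtb16* between *Id2* and *Cd3g* changed sign with no filter (-0.0081), thinned gates (-0.16), no top Scrublet scores (-0.032), the *Id2* gate at 2 (-0.076) and the overlap kept (-0.26). With thinned gates the sign also changed for *Nfil3* in *Id2* against progenitor (-0.14), *Cd3g* against early (-0.28) and the commitment genes (-0.23), and for *Tox* in *Cd3g* against early (-0.0020) and early against progenitor (-0.24). After thinning, 3.07% of *Id2*-gate barcodes held 2 or more factors. The causes were not tested. Leaving out a library leaves no residual degrees of freedom and so no test; the differences of *Rora* then ran from 2.03 to 2.90, 1.88 to 3.32 and 2.80 to 4.04 against *Cd3g*, early and progenitor. With 3 UMIs, *Tbx21* could not be tested.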
